A study of Mus musculus with 11 samples.

Results

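RNA splicing factor genes were taken as the protein-coding RefSeq genes of the mm10 build whose symbol starts with Srsf, Snrp, Hnrnp, Sf3a, Sf3b, U2af or Prpf, together with Tra2a and Tra2b. The rule gave 71 of the 21887 protein-coding genes in the annotation, and it used no measured value. By molecular role they comprised 13 SR and Tra2 genes, 21 hnRNP genes, 8 genes of the Sm core, 16 genes of the U1 and U2 particles and their partners, and 13 Prpf genes. Open chromatin near these genes was read out by ATAC-seq, where a transposase cuts and tags accessible DNA, in alveolar macrophages (the resident macrophages of the air sacs) sorted from lungs of C57BL/6 mice. Naive mice gave 4 samples, and they carried no tumour. Mice injected in the tail vein with KP or KP-GFP cells, a lung adenocarcinoma line that forms tumour foci in the lung, gave 4 samples 15 days later and 3 samples 30 days later. No age is given in the labels, and the tumours were seeded from a cultured line through the blood.

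Splicing removes introns from new transcripts in the spliceosome, a machine assembled from small nuclear ribonucleoprotein particles. The U1 particle recognises the start of an intron and the U2 particle the branch point near its end, while a ring of Sm proteins forms the core of most of these particles. SR and Tra2 proteins bind exons and mostly favour their use, hnRNP proteins coat new transcripts and often oppose it, and Prpf proteins act in the later, catalytic assemblies. Most of these genes are expressed in nearly all cell types, macrophages included.

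Each group had a single deposited peak list, so none of the values below has a replicate error and no test between groups was possible. A gene has a boundary peak here when a peak is at most 1000 bp from its annotated start or finish. It was kept when it had one in both lists compared, lost when it had one in the naive or earlier list alone, and gained when it had one in the later list alone. These terms refer to calls by the peak caller, not to how open a site was. The 95% Wilson intervals cover counting error over genes only, and they treat genes as independent although some share a peak. Each sample pools many cells, so fewer cells with a site open and less opening per cell cannot be told apart.

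Upstream sequences of 7 of these genes are shown as examples of kept, lost and gained boundary peaks and of an internal start. Hnrnpc had the strongest naive boundary peak of all the splicing genes, Srsf11 and Sf3b1 had the strongest of their groups, and all 3 were kept to day 30. Prpf31 and Prpf6 were lost at day 15, and Sf3b3 was gained there. Hnrnpl, chosen after its values were seen, had peaks over an internal start in all 3 lists and no boundary peak. Each line is the 250 bases 5′ of a RefSeq transcription start (GRCm38.p6, the patched form of mm10), written 5′ to 3′ on the strand of the gene. Capitals mark matches on either strand to GGGCGG (a GC box), GGAAG (an ETS core), CCAAT (the box of that name), TGACG (one side of a cyclic AMP response element), AAGATGG (YY1), GCATGCG (NRF1 core), CACGTG (an E-box) or TATAAA, and neighbouring or overlapping matches run together.
Hnrnpc, chr14:52104022-52104271, minus strand: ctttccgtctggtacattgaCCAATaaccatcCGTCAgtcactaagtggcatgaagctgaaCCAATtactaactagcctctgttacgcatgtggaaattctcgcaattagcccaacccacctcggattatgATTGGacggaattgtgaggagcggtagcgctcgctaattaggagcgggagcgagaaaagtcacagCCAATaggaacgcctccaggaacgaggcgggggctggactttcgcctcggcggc
Srsf11, chr3:158036607-158036856, minus strand: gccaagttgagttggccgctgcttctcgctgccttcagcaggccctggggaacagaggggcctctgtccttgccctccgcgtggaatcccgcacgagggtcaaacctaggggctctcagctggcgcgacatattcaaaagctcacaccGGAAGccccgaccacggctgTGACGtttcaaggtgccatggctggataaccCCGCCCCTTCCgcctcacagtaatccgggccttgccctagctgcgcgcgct
Sf3b1, chr1:55027479-55027728, minus strand: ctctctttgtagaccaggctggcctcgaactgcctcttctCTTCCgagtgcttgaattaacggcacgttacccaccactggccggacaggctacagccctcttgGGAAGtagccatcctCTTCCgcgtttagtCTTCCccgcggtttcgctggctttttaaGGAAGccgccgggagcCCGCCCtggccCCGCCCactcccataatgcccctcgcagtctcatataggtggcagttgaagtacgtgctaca
Prpf31, chr7:3629735-3629984, plus strand: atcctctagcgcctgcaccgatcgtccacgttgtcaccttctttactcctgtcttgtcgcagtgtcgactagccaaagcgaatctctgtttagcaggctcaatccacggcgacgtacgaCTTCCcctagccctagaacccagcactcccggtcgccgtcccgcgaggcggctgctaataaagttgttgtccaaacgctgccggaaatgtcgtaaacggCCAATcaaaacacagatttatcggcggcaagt
Prpf6, chr2:181601069-181601318, plus strand: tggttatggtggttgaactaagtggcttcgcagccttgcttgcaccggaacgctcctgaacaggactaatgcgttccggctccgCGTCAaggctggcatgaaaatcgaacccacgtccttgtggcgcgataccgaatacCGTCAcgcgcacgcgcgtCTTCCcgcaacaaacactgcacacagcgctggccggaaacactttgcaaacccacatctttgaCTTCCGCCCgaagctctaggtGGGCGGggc
Sf3b3, chr8:110846804-110847053, minus strand: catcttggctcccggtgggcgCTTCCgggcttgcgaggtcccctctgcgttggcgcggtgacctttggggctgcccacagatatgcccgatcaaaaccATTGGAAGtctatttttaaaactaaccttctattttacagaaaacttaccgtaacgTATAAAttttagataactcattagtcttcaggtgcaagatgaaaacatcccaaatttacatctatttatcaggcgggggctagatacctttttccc
Hnrnpl, chr7:28810640-28810889, plus strand: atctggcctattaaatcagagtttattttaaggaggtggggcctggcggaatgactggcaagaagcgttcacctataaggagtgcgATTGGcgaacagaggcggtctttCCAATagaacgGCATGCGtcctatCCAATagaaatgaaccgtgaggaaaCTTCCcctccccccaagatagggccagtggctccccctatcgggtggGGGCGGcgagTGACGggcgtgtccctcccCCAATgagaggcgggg

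The naive peak covered all 250 bases printed for Hnrnpc and for Hnrnpl, 225 for Sf3b1 and 221 for Srsf11. It covered 237 of the bases for Prpf31 and 115 for Prpf6. At Sf3b3 the day 15 peak reached only 40 of the bases, since most of it lay downstream of the start. Hnrnpc and Hnrnpl held 4 CCAAT matches each, and Sf3b1 held 5 ETS cores and no CCAAT match. A match describes the letters in this window and not a bound factor.

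RefSeq promoter windows, 250 bases before to 50 after a start, were given for 62 of the 71 splicing genes and numbered 83. Matches to TGACG on either strand occurred in 48.2% of these windows, against 34.7% of windows of genes that had a naive boundary peak and 23.6% of windows of all protein-coding genes. CCAAT occurred in 48.2%, against 42.1% and 38.2%, and in 64.3% of the 28 hnRNP windows. The observed over expected CpG ratio had a median of 0.92 in the splicing genes, against 0.79 in genes with a naive boundary peak and 0.57 in all genes, while GC content was 60.0%, against 61.3% and 56.3%. The GC box was in 63.9%, against 65.6% and 46.2%, and the ETS core in 71.1%, against 76.3% and 72.4%. The splicing promoters were thus close in GC content to promoters with a naive peak, with a higher CpG ratio and more TGACG matches. The remaining motifs were rarer, at 13.3% for the E-box, 12.0% for NRF1, 9.64% for TATAAA and 3.61% for YY1, against 10.4%, 7.08%, 6.52% and 7.65% of windows of genes with a naive boundary peak and 7.84%, 4.44%, 12.6% and 6.24% of all windows. SR and Tra2 windows were the richest in GC boxes among the 5 groups, at 15 of 16 windows from 13 genes (93.8%). Sm core windows were the poorest, at 2 of only 9 windows from 6 genes (22.2%).

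The lists held 14731 naive peaks, 10861 peaks at day 15 and 3352 at day 30, with a median summit pileup of 16, 19 and 17 tags. The background recovered from the peak values was 2.38 times the naive one at day 15 and 2.1 times at day 30. Both tumour lists thus had fewer peaks at greater depth. Tags below are those of each list, not scaled for depth, unless naive depth is named. More tags in a tumour list are therefore not by themselves a more open site. Scaled to the naive background, every kept splicing gene had fewer tags at its strongest boundary peak in the tumour lists than in the naive list. Hnrnpm, for example, had 11 naive tags and 23 at day 15, which scale to 9.65. The part of depth in the results below was not tested, and the depth of single samples is unknown from these lists. Of 15 alveolar macrophage markers 7 had a naive boundary peak, 4 had one at day 15 and 1 at day 30, while 7, among them the defining Siglecf and Marco, had none in any list. Of 8 general macrophage and myeloid markers, 6, 6 and 2 had one. Cd68 and Cebpa had one in each list, Spi1 in the naive and day 15 lists alone, and Csf1r in none. None of the 5 B cell, 5 epithelial and tumour and 5 endothelial markers had a boundary peak in any list. Among monocyte, neutrophil and T cell markers, Maf, S100a8 and Cd3d alone had one, and their part in the results was not tested.

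Most splicing genes carried a boundary peak in naive macrophages and at day 15, and about 1 in 3 did at day 30. In the naive list 59 of the 71 had one (83.1%, interval 72.7 to 90.1), against 34.7% of all protein-coding genes. At day 15 the number was 54 (76.1%, 65.0 to 84.5), against 29.6%, and at day 30 it was 26 (36.6%, 26.4 to 48.2), against 12.8%. In all 3 lists 26 genes had one, 27 had one in the naive and day 15 lists, 6 in the naive list alone, 1 at day 15 alone, and 11 in no list. The splicing genes thus stood at over 2 times the share of all genes in each list, although their naive peaks were not stronger. The highest naive −log10 p per gene had a median of 14.4 over the 59 and of 15.2 over the 7594 protein-coding genes with a naive boundary peak.

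**Figure D1:**
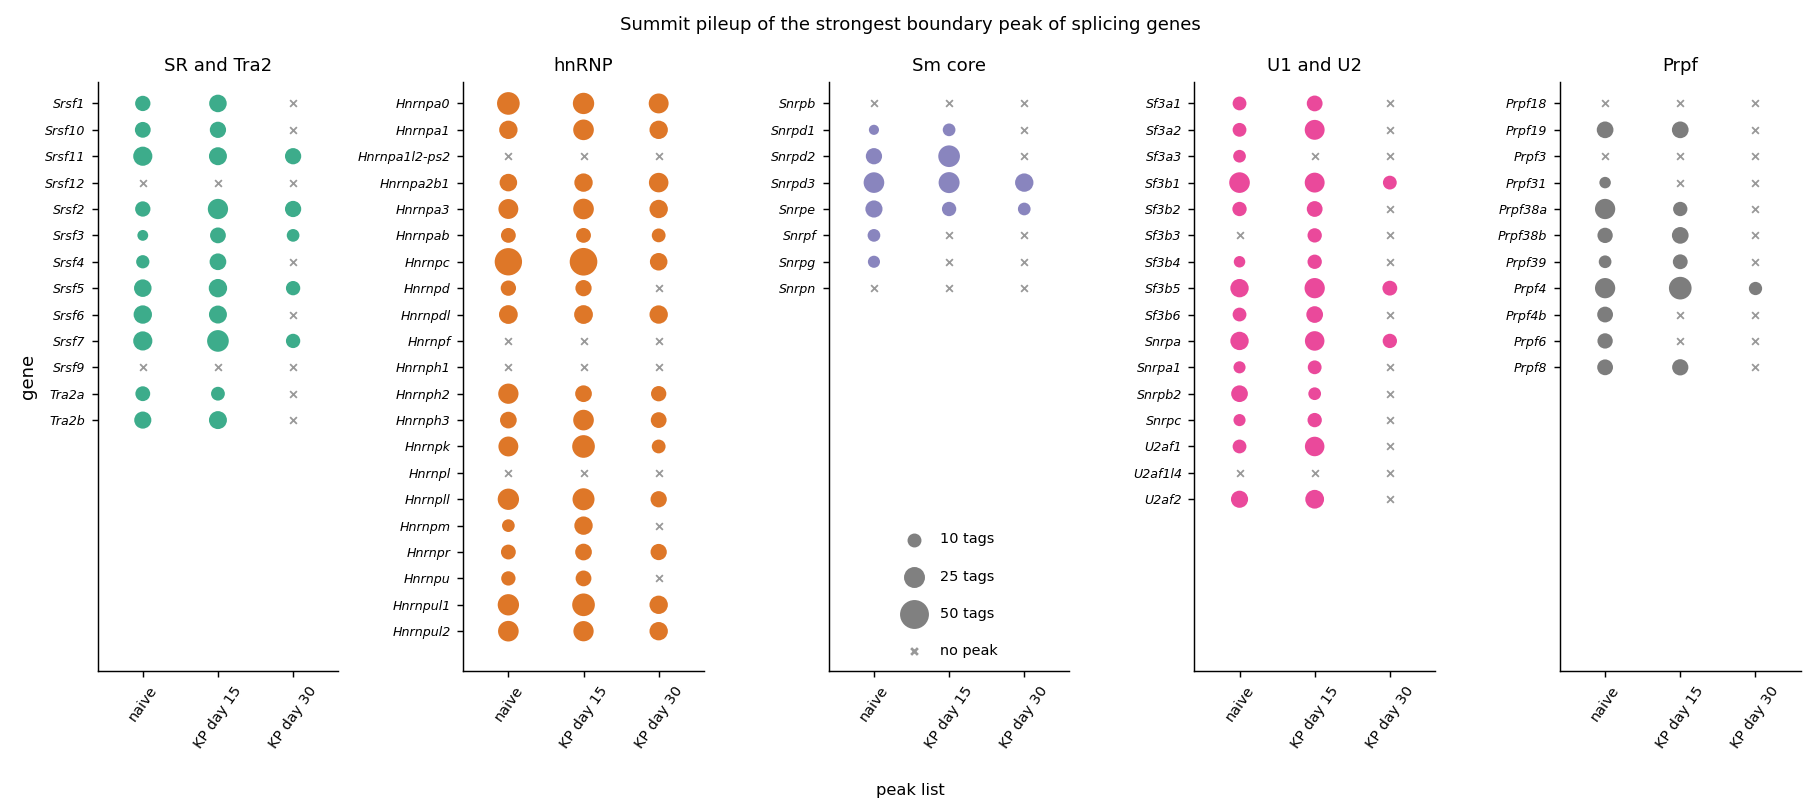
Summit pileup, in tags, of the strongest boundary peak of 69 of the 71 splicing genes (rows, by group) in the naive, KP day 15 and KP day 30 lists (columns). Dot area grows with the pileup and a cross marks no boundary peak; the day 30 column holds 14 hnRNP genes.

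At day 15, against naive, 53 of the 59 splicing genes were kept, 6 were lost and 1 was gained. The share kept was 89.8% (79.5 to 95.3), against a background of 79.6% of every gene that had a naive boundary peak, where 20.4% were lost and 3.04% of genes without a naive one were gained. Since strong naive peaks are kept more often, each gene was also set beside the other genes in the same bin, of 10 equal bins, of the naive −log10 p. Those were kept at a rate that gives 45.9 of the 59 (77.7%), and the splicing genes stood 12.1 percentage points above it. SR and Tra2 genes kept 11 of 11 where 8.78 were expected, hnRNP genes 17 of 17 where 15.0 were, and U1 and U2 genes 13 of 14 where 9.70 were. Sm core genes kept 4 of 6 where 4.00 were expected, and Prpf genes 8 of 11 where 8.38 were. All 6 lost genes were in the weaker 5 bins, where 28 of 34 splicing genes were kept (82.4%, against 62.2% of other genes), and 25 of 25 were kept in the stronger 5, against 96.7% of other genes. The groups with losses were the Sm core, the U1 and U2 genes and the Prpf genes.

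At day 30, against naive, 26 splicing genes were kept, 33 were lost and 0 were gained, and 14 of the 26 were hnRNP genes. The share kept was 44.1% (32.2 to 56.7), against 36.5% of all genes, with 63.5% lost and 0.245% gained. With lists of equal length 2 were lost and 11 gained, so the direction of these counts depends on the length of the lists. Genes of equal naive −log10 p give 18.2 (30.8%), and the splicing genes stood 13.2 points above it. The hnRNP genes kept 14 of 17 (82.4%, 59.0 to 93.8) where 7.36 (43.3%) were expected. The splicing genes of the other groups kept 12 of 42 (28.6%, 17.2 to 43.6) where 10.8 (25.8%) were expected, which is 2.77 points above. SR and Tra2 genes kept 5 of 11 (2.95 expected), Sm core genes 2 of 6 (1.21), U1 and U2 genes 3 of 14 (2.92) and Prpf genes 2 of 11 (3.75). Most of the excess at day 30 therefore lay in the hnRNP genes, while U1 and U2 genes were at the expected number and Prpf genes below it. With 1 list a group, the difference between hnRNP and the other genes could not be tested across samples. Both comparisons use the same naive list.

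**Figure D2:**
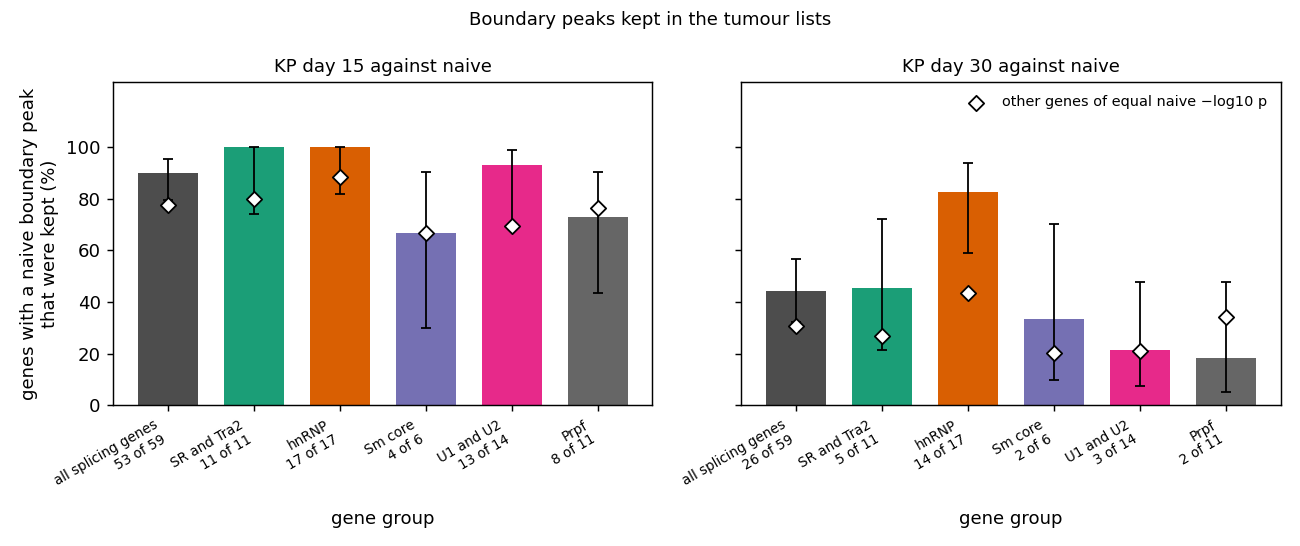
Share of splicing genes with a naive boundary peak (bars, in percent) that had one at KP day 15 (left) or KP day 30 (right), with 95% Wilson intervals over genes as error bars. Diamonds give the share expected from other genes of equal naive −log10 p; at day 30 the hnRNP bar stands at 82.4% with its diamond at 43.3%.

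At day 30, against day 15, 26 of 54 splicing genes were kept, 28 were lost and 0 were gained. The share kept was 48.1% (35.4 to 61.1), against 42.1% of every gene that had a day 15 boundary peak, where 57.9% were lost and 0.506% of genes without a day 15 one were gained. The hnRNP genes kept 14 of 17 there, and the other groups 12 of 37. No splicing gene had a day 30 boundary peak without also having one in each of the other lists.

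The naive strength of a peak went with its presence at day 30. The 26 kept genes had a median naive −log10 p of 20.7, with a lowest of 6.81 and a highest of 43.5, and the 33 lost genes had a median of 11.8, from 5.75 to 28.4. The same held for other genes. In the weaker 5 bins 5 of 34 splicing genes were kept (14.7%), close to the 12.6% of other genes there, and in the stronger 5 bins 21 of 25 were (84.0%), against 60.2% of other genes. The ranges of kept and lost genes overlapped widely, with Srsf3 and Prpf38a far from the rest of their side.

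**Figure D3:**
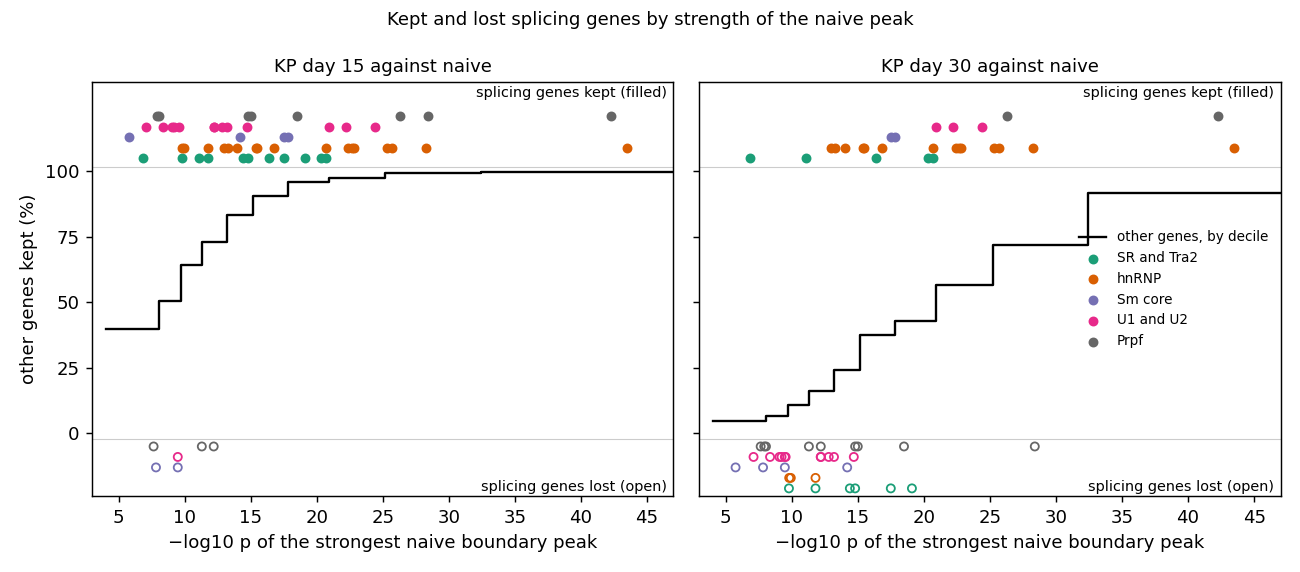
Splicing genes by the −log10 p of their strongest naive boundary peak (x axis), kept (filled dots, above) or lost (open dots, below) at KP day 15 (left) and KP day 30 (right), one row per group. The step line gives the percentage of other genes kept in each bin of naive −log10 p, from 4.91% to 91.7% at day 30.

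SR and Tra2 genes with a boundary peak numbered 11 of 13 in naive macrophages, 11 at day 15 and 5 at day 30. These 5 were Srsf2, Srsf3, Srsf5, Srsf7 and Srsf11. Srsf11, an SR-related splicing regulator, had 25 naive tags, 22 at day 15 and 18 at day 30 across its start, at chr3:158036419-158036827 in the naive list. A second start inside Srsf11 also had a peak in all 3 lists, with 18, 17 and 22 tags. Srsf11 was thus the SR gene with the highest naive −log10 p, 20.7, and its internal peak at day 30 was the taller of its pair. Srsf7 had 25, 32 and 14 tags, and at day 30 its region was called as 2 peaks. Srsf2, which encodes the protein also known as SC35, had 16, 28 and 18 tags. Srsf5 had 21, 23 and 14 tags at a site 686, 709 and 708 bp downstream of its start, and a second naive and day 15 peak at the start itself was absent at day 30. Pileups at day 30 were below those at day 15 in all 5 genes.

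Srsf3, a small SR protein that autoregulates its own transcript, had the weakest naive peak of the 5, with 8, 17 and 11 tags. Other genes of its naive strength were kept at day 30 in 4.91% of cases. The naive peak, at chr17:29032623-29032822, and the day 15 peak, at chr17:29032333-29032620, did not overlap each other, and the day 30 peak, at chr17:29032408-29032717, overlapped both. Srsf1, Srsf4, Srsf6, Srsf10, Tra2a and Tra2b had naive and day 15 peaks and none at day 30. Srsf1, Srsf4 and Srsf10 had 21, 19 and 18 tags at day 15, against 16, 12 and 17 naive tags. Of the 6 genes Srsf6 had the strongest naive peak, with 22 tags at day 15 and 23 naive tags, and 42.8% of genes of its naive strength were kept at day 30. Tra2a and Tra2b, which bind exonic enhancers, had 13 and 22 tags at day 15, against 15 and 20 naive tags. Srsf9 and Srsf12 had no boundary peak in any list and no peak inside the gene.

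Of the 21 hnRNP genes, 17 carried a boundary peak in naive macrophages, the same number at day 15, and 14 at day 30. Hnrnpc, whose protein binds uridine tracts, had 51, 52 and 21 tags. Its naive peak, at chr14:52103937-52104570, had a −log10 p of 43.5 and a fold of 12.6 over local background, with the summit 358 bp upstream of the start. Hnrnpa1, Hnrnpa2b1 and Hnrnpa3 encode the abundant A and B type proteins that bind nascent transcripts. Hnrnpa1 had 23 tags at its tallest naive peak, 29 at day 15 and 23 at day 30, Hnrnpa2b1 had 21, 23 and 26, and Hnrnpa3 had 27, 29 and 23. At Hnrnpa1 the naive and day 15 lists had 3 peaks each within the region and the day 30 list 1, over the start. The related Hnrnpa0 had 35, 31 and 27 tags, the highest day 30 pileup among the splicing genes.

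The poly-C binding Hnrnpk had 27, 35 and 13 tags, and Hnrnpll, which binds CA-rich RNA and controls CD45 splicing in lymphocytes, had 31, 33 and 18. Hnrnph2 and Hnrnph3, of the G-tract binding subfamily, had 28, 19 and 16 tags and 19, 29 and 17 tags. Hnrnpab and Hnrnpdl, relatives of the AU-rich element binding Hnrnpd, had 15, 15 and 13 tags and 24, 24 and 23 tags. The highest and lowest day 30 pileups among the 14 were thus 27 and 13, a narrower spread than the naive 15 to 51. Hnrnpr had 15, 19 and 18 tags, Hnrnpul1 had 31, 35 and 23, and Hnrnpul2 had 29, 28 and 23. The 3 lost hnRNP genes had some of the lowest naive pileups of the group. Hnrnpd had 18 tags at day 15 and 16 naive tags, and Hnrnpm, a regulator of alternative exons, had 23 at day 15 and 11 naive tags. Hnrnpu, a nuclear scaffold protein, had 17 at day 15 and 14 naive tags. Among genes in the same bins of naive strength as these 3, between 11.0% and 16.1% were kept at day 30, and Hnrnpab was kept in the bin with 16.1%. The day 30 peaks counted for Hnrnpk and Hnrnpdl lay nearer to an end of another protein-coding gene. With each peak given to its nearest gene alone, 12 of 16 hnRNP genes were kept at day 30.

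The 4 remaining hnRNP genes had no boundary peak in any list. Hnrnpf, Hnrnph1 and Hnrnpl nevertheless had peaks over RefSeq starts inside the gene in all 3 lists, farther than 1000 bp from its annotated ends. Hnrnpf had 46, 34 and 18 tags at its tallest peak, Hnrnph1 had 21, 34 and 21, and Hnrnpl, which binds CA repeats, had 36, 31 and 21. The tallest Hnrnpf peak lay nearer to an end of another protein-coding gene. The peak with Hnrnpf as its nearest gene had 20 naive tags, 22 at day 15 and no call at day 30. The Hnrnpl peak, at chr7:28810378-28811001 in the naive list, lay 1832 bp inside the annotated start of the gene, the nearest outside the limit among genes with no boundary peak, and the Hnrnpu peak, at 975 bp at day 15 and 959 bp in the naive list, lay just inside it. The fourth, Hnrnpa1l2-ps2, is named as a pseudogene and had no peak within it. Counted at RefSeq starts, 18 of 19 hnRNP genes with a start given had a naive peak there, 18 had one at day 15 and 15 at day 30. The same count over the 62 splicing genes with a start gave 55, 50 and 25, against 37.4%, 32.1% and 14.1% of all genes with a start.

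Of the 8 Sm core genes, 6 had a naive boundary peak, 4 had one at day 15 and 2 at day 30. Snrpd3 had 29, 30 and 23 tags, with the tallest summit 743, 612 and 740 bp upstream of its start and a second naive peak of 21 tags at the start that overlapped no peak in the other lists. Snrpe had 20, 14 and 11 tags at its start. Snrpd3 and Snrpe were the only Sm genes kept to day 30. The tallest Snrpd3 peak lay nearer to Gucd1 in all 3 lists, so Snrpd3 counts as kept through a shared site. Snrpd2 had 32 tags at day 15 and 18 naive tags. Snrpd1 had 11 at day 15 and 7 naive tags, the lowest naive pileup among the splicing genes. Snrpf and Snrpg were lost at day 15, with naive pileups of 11 and 10 tags, and 50.5% and 39.7% of genes of their naive strength were kept there. Snrpb and its imprinted relative Snrpn had no boundary peak in any list.

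Genes of the U1 and U2 particles were nearly all kept at day 15, 13 of 14 where 9.70 were expected from genes of equal naive strength. At day 30 they were mostly lost, but the 3 kept were at the expected number of 2.92, and 63.5% of all genes were lost. Of 16 genes, 14 had a naive boundary peak, 14 had one at day 15 and 3 at day 30. Sf3b1, the U2 protein that contacts the branch region, had 29, 27 and 13 tags. Its naive −log10 p was 24.4, the highest of the group. Sf3b5, a small subunit of the same complex, had 23, 28 and 15 tags, and Snrpa, a U1 protein that binds U1 RNA, had 23, 26 and 14. All 3 therefore had pileups between 13 and 15 tags at day 30, near the lower end of the range among the kept splicing genes. The U2AF heterodimer recognises the end of the intron. U2af2, which binds its polypyrimidine tract and had the highest naive −log10 p of the U2af genes (12.8), had 24 tags at day 15 and 20 naive tags. U2af1, which reads the terminal AG, had 26 at day 15 and 13 naive tags. Sf3a1, Sf3a2, Sf3b2, Sf3b4, Sf3b6, Snrpa1, Snrpb2 and Snrpc likewise had peaks in these lists and none at day 30, with between 11 tags (Snrpb2) and 27 tags (Sf3a2) at day 15 and between 9 (Sf3b4) and 19 naive tags (Snrpb2). U2af1l4, a relative of U2af1, had no boundary peak in any list.

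Sf3b3 was the 1 gained gene at day 15, and Sf3a3 the 1 lost gene of this group. The Sf3b3 peak, at chr8:110846644-110846843, had 14 tags and a fold of 5.17, with its summit 100 bp downstream of the start, and Cog4 lay within 1000 bp of it. Scaled to the naive depth its pileup comes to 5.87 tags, where the lowest naive peak of any kind had 6, so a difference from naive macrophages was not detectable at this depth. Sf3a3 had 11 naive tags at its start and no peak at day 15, where 50.5% of genes of its naive strength were kept.

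Of 13 Prpf genes, 11 had a naive boundary peak, 8 had one at day 15 and 2 had one at day 30. The share lost at day 15, 3 of 11, was the largest after the Sm core. Both groups were near the number kept among genes of equal naive strength, which gives 8.38 of 11 for Prpf genes and 4.00 of 6 for the Sm core. Prpf4, a component of the tri-snRNP, had 28, 35 and 12 tags. Prpf38a, which joins the spliceosome before activation, had 28 naive tags, 14 at day 15 and no peak at day 30, although 71.8% of genes of its naive strength were kept. It was the strongest naive peak among the lost splicing genes. Prpf8, which encodes the protein at the catalytic centre, had 18 tags at day 15 and 17 naive tags, and Prpf19, a ubiquitin ligase of the spliceosome, had 19 in each of these lists. Prpf38b and Prpf39 had 19 and 15 tags at day 15, against 16 and 11 naive tags, and no peak at day 30. Prpf8 and Prpf19 had none there either, where 24.3% and 42.8% of genes of their naive strength were kept.

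Prpf31, Prpf4b and Prpf6 were lost at day 15. Prpf31, a tri-snRNP protein, had no peak at day 15, against 9 naive tags at chr7:3629725-3629971. Prpf4b, a kinase of the spliceosome, had 2 naive peaks of 17 tags each, and Prpf6, another tri-snRNP protein, had 1 of 16 tags at chr2:181601204-181601416. Of genes of equal naive strength, 39.7% were kept at day 15 for Prpf31 and 73.2% for Prpf4b and for Prpf6. The pileups of Prpf4b and Prpf6 lay at or near the naive median of 17 tags over splicing genes. Prpf18 and Prpf3 had no boundary peak in any list.

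Boundary peaks of splicing genes sat close to transcription starts. Of the naive peaks with a start given, 50 of 60 had their summit within 300 bp of it, and 44 of 53 at day 15 and 18 of 23 at day 30 did. The median summit lay 55, 67 and 89 bp upstream in the naive, day 15 and day 30 lists. One exception was at the finish of Sf3b2, 22410 bp from its start, where the peak also lay near Pacs1.

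**Figure D4:**
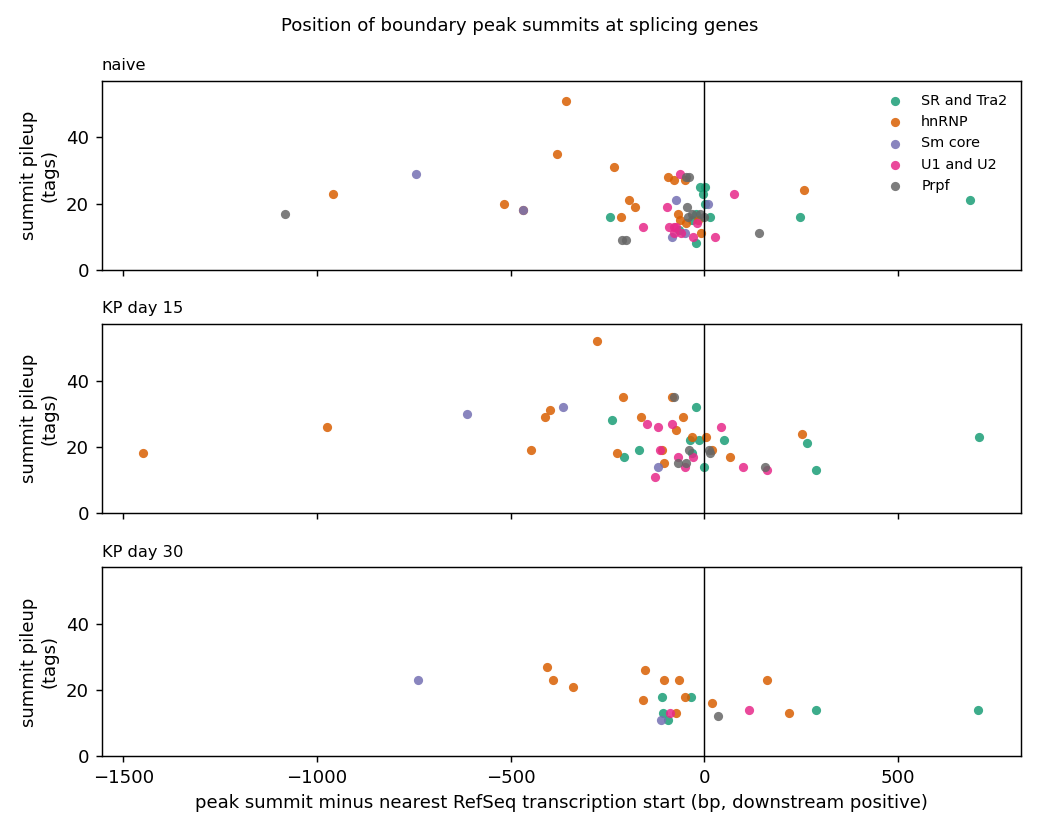
Position of each boundary peak summit relative to the nearest RefSeq start (x axis, bp, downstream positive) against its summit pileup in tags (y axis), for splicing genes in the naive, KP day 15 and KP day 30 lists, coloured by group. Most summits lie within 300 bp of the start; the peak at the finish of Sf3b2 is beyond the axis.

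Many of these peaks lay near a second gene. At 24 of 59 splicing genes in the naive list (40.7%) every boundary peak was also within 1000 bp of another protein-coding gene, against 29.7% of every gene that had a naive one. At day 15 it was 24 of 54 (44.4%, against 31.7%), and at day 30 it was 16 of 26 (61.5%, against 35.8%). Among hnRNP genes it was 11 of 17, 11 of 17 and 9 of 14. The neighbours included Cbx3 at Hnrnpa2b1 and Cbx5 at Hnrnpa1, which encode heterochromatin proteins, Lrrc40 at Srsf11, Gemin6 at Srsf7 and Cdc26 at Prpf4. With peaks near another gene left out, an alternative chosen after the data were seen, 10 splicing genes were kept at day 30, and the excess over genes of equal naive strength was 3.67 points instead of 13.2. For hnRNP genes the excess was then 46.4 points, from 5 of 6 genes kept, instead of 39.1 from 14 of 17. When the expected share was instead taken, again a choice made after the data were seen, within genes that share their peaks and within those that do not, the excess over all splicing genes was 12.5 points.

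With lists of equal length the order of the 3 groups was the opposite one. Among the top 3352 peaks of each list, the naive list gave 17 splicing genes with a boundary peak, day 15 gave 22 and day 30 gave 26, where all genes stood at 12.8%, 13.0% and 12.8%. The hnRNP genes numbered 8, 10 and 14 of 21, and the other splicing genes 9, 12 and 12 of 50. Taking the shortest list whole, the splicing genes therefore ranked no lower among the day 30 peaks than among the strongest naive ones, although fewer of them had a peak in the whole list. Of the 26 at day 30, 15 were in the naive top list and 11 were not (42.3%), against 32.3% of all genes in the day 30 top list.

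Peaks that had a splicing gene as the nearest protein-coding gene within 50 kb numbered 68, 61 and 29 in the naive, day 15 and day 30 lists. Those away from a gene boundary numbered 7, 7 and 4, or 10.3%, 11.5% and 13.8%, against 45.7%, 40.6% and 24.3% of all peaks assigned to a protein-coding gene in this way. Peaks near splicing genes thus lay mostly at the gene ends in each list. Of the 61 at day 15, 56 overlapped a naive peak (91.8%, 82.2 to 96.4), against 87.8% of all such peaks, and of the 29 at day 30, 28 did (96.6%, 82.8 to 99.4), against 96.6%.

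The 5 day 15 peaks that overlapped no naive peak belonged to Tra2a, Hnrnpul1, Hnrnph1, Sf3b3 and Srsf3. The Tra2a peak, at chr6:49236389-49236668, lay 7253 bp beyond the finish of the gene and outside it, with 23 tags and a fold of 8.36. A peak at chr6:49236394-49236650 in the day 30 list, with 18 tags and a fold of 7.09, overlapped it. It was the 1 day 30 peak near a splicing gene that overlapped no naive peak, and at naive depth the pileups come to 9.65 and 8.59 tags. The Hnrnpul1 peak, at chr7:25756093-25756320, with 18 tags, lay across the annotated start of the gene and within 1000 bp of Axl, a receptor for dying cells. The Hnrnph1 peak, at chr11:50369515-50369744, had 13 tags and lay 5513 bp upstream of the gene. At naive depth the Hnrnpul1, Hnrnph1 and Srsf3 pileups come to 7.55, 5.45 and 7.13 tags, where the lowest naive peak of any kind had 6. The Hnrnph1 peak was thus below what the naive list could show.

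Splicing genes outside the symbol rule gave similar counts. Of a list of 100 other genes with roles in splicing, such as Ptbp1, Srrm2 and Tardbp, 71 carried a naive boundary peak, 67 one at day 15 and 32 one at day 30. All protein-coding genes stood at 34.7%, 29.6% and 12.8%. At day 15, against naive, 62 were kept (87.3%, 77.6 to 93.2), 9 were lost and 5 were gained. At day 30, against naive, 31 were kept (43.7%, 32.7 to 55.2), 40 were lost and 1 was gained. Those gained were 17.2% of the listed genes without a naive one at day 15 and 3.45% at day 30. Over all genes these shares were 3.04% and 0.245%. Of the 7 Snrnp genes, which encode further particle proteins, 5 carried a naive one, 5 one at day 15 and 1, Snrnp70 of the U1 particle, at day 30. The shares kept in the 71 splicing genes, 89.8% at day 15 and 44.1% at day 30, lay within the intervals of the 100 genes. Over all genes with a naive boundary peak the shares kept, 79.6% and 36.5%, lay within them too. For the shares kept, the intervals of the 100 genes thus do not set them apart from all genes with a naive boundary peak. This holds without matching on naive strength, and no expected share was calculated for the 100 genes. The share of the 100 with a naive boundary peak, 71.0% (61.5 to 79.0), lay above the 34.7% of all genes.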

How the data were processed

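Open chromatin was measured by ATAC-seq in alveolar macrophages sorted from mouse lung, and the deposited data are 3 peak lists, each standing for a group: KP day 15 (4 samples), KP day 30 (3 samples) and naive (4 samples). The design text speaks of triplicates. Whether the samples of a group were combined for peak calling was not given in the sources used here, nor were the settings. Alignment and peak calling tools listed in the submitters' processing notes are Bowtie2 2.3.4.1 and MACS2 2.1.1, with mm10. The deposited lists have no header, so the meaning of each column was taken from its values. They hold the authors' score, the fold over local background (a ratio), the −log10 of the p-value and the −log10 of the q-value. These are the peak caller's values for each peak, used to describe and rank peaks within a list.

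Summit pileup and background were recovered from the deposited fold and p. The fold was read as pileup plus 1 over background plus 1, and p as an upper Poisson tail. This recovery was tested on simulated data. Gene ends came from RefSeq (mm10), and promoters from RefSeq (GRCm38.p6). The expected share kept is the mean, over splicing genes, of the share of other genes kept in the same of 10 bins of the highest naive −log10 p. Analyses used Python 3.11.15, numpy 2.4.6, pandas 2.3.3, scipy 1.17.1 and statsmodels 0.14.6, with peaks overlapping at 1 bp or more. Coordinates are 1-based.

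The genes and lists were chosen with earlier results of these data known. Splicing genes were named when lost or gained at day 15, when they had a day 30 boundary peak or the highest naive −log10 p of their family, when they had no boundary peak, or when a tumour-list peak nearby overlapped no naive peak. Others were named after their values were seen. The values of some genes that these rules would name are not reported here, although every count includes them. Alternatives covered the boundary distance, a stricter q-value, equal list lengths, assignment to the nearest gene or to starts, the bins of naive strength and the overlap required.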

Additional observations from a re-analysis of the deposited data

How the results depend on the processing

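Of 152 recalculated values under 13 alternative settings, 135 moved by less than the counting interval or by less than 1.5 times a count, 14 moved further and 3 reversed. With boundaries of 500 bp, 2 splicing genes were gained at day 15, against naive. All 3 reversals came with equal list lengths, where gained minus lost splicing genes was 5 at day 15 against naive (instead of -5), 9 at day 30 against naive (instead of -33) and 4 at day 30 against day 15 (instead of -28). Then 13 were kept and 9 gained at day 15, against naive, 15 were kept, 2 lost and 11 gained at day 30, against naive, and 17 were kept, 5 lost and 9 gained at day 30, against day 15. The excess at day 30 over genes of equal naive −log10 p was then 26.9 points, over 17 genes. With peaks near no other gene, a setting chosen after seeing the data like the bins of naive pileup and of shared peaks, 30 were kept and 0 gained at day 15, against naive, and 10 were kept at day 30, against naive and against day 15. The cause was not tested, beyond the fewer peaks that these settings leave. The hnRNP excess at day 30 ranged from 31.6 points to 46.4, which rests on 6 genes with peaks near no other gene, and that of all splicing genes from 3.67 to 26.9. No paired analysis was possible because each group has 1 peak list, with no values per sample, and leaving out a replicate was not run for the same reason.

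A gene without a boundary peak is one below the threshold of the peak caller, which is not a measurement of closed chromatin. The naive list is the shallower one, with the lowest pileup of any naive peak at 6 tags, and the intervals hold no variation between mice.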
